A study of Danio rerio with 2 samples.

Results

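Transcribed regions of the zebrafish (Danio rerio) genome that were abundant, and at a similar level, in 2 sorted populations of spinal neurons are described here. They were selected on measured values. Rows of both libraries that overlapped were merged into regions, and a region was kept where its summed FPKM was 50 or more in both libraries and the log2 ratio of (FPKM + 1), 1020 over HuC, lay between -1 and 1, that is, within 2-fold. FPKM counts sequenced fragments for each kilobase of transcript and relates them to the mapped fragments of the library. This gave 893 regions of the 23006 that were listed in both libraries and of the 46045 listed in all. Because the FPKM of both libraries chose them, their levels and ratios are a description and carry no test.

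Both populations came from embryos at 20 hours post fertilization, cut at somite 3 so that the tail was kept, dissociated with trypsin and collagenase, and sorted by fluorescence. The 1020 library is from cells marked by the Gal4 driver 1020st, labelled an olig2+ subpopulation. The HuC library is from cells marked by a HuC driver and labelled panneuronal. Both samples are described as spinal neurons, no further allele, strain or treatment is given in the labels, and RNA was polyA-selected in both. Each group held 1 library, so no difference below can be set against replicate error and no p-value is given.

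Olig2 is a transcription factor of the progenitor domain that yields motor neurons and oligodendrocytes, and HuC (Elavl3) is an RNA-binding protein that marks neurons once they have left the cell cycle. A Gal4 driver marks the cells in which its enhancer is active, so a population sorted in this way can hold several cell types, and cells of an olig2-derived population can also carry HuC. In most animal cells the abundant polyadenylated RNAs held in common encode ribosomal proteins, translation factors, cytoskeletal proteins and chaperones. Which of the regions below encode these was not analysed here: the rows carry a position on the Zv9 build and no gene name, and no annotation of that build was used. The labelled cell type could not be checked against marker genes for the same reason. In bulk samples a lower level can come from fewer cells of a type or from less RNA per cell, and these cannot be told apart.

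The libraries held 70216 rows (1020) and 49173 rows (HuC) as deposited, and 62223 and 47318 rows once those with a span under 300 bp or an FPKM above 200000 were set aside. If the lowest recurring FPKM at a short span is 10 fragments, which was not tested, the values correspond to denominators of 38195670 and 21878344 fragments. On that scale, among 17 of the 893 regions listed as a single row under 1000 bp in each library, the lowest rough count was 154 fragments.

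Of the rows kept, the 893 regions held 4.14% (1020) and 5.23% (HuC), with 42.1% and 42.9% of the summed FPKM of the kept rows. These last shares depended on the processing: with no span minimum they were 6.89% and 23.8%, and for regions with 1 row in each library 19.5% and 20.8%. A further 188 regions also reached 50 FPKM in both libraries but differed by 2-fold or more, and these held 12.2% (1020) and 15.7% (HuC) of the summed FPKM. Of these 188, 74 favoured 1020 and 114 favoured HuC. The 893 regions made up 82.6% of the 1081 abundant regions. For all 22655 regions listed in both libraries at 1 FPKM or more in at least 1 of them, the share within 2-fold was 80.6%, with 8.83% higher in 1020 and 10.6% higher in HuC. The rule used this contrast, and nothing is read from the closeness of these shares.

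**Figure D1:**
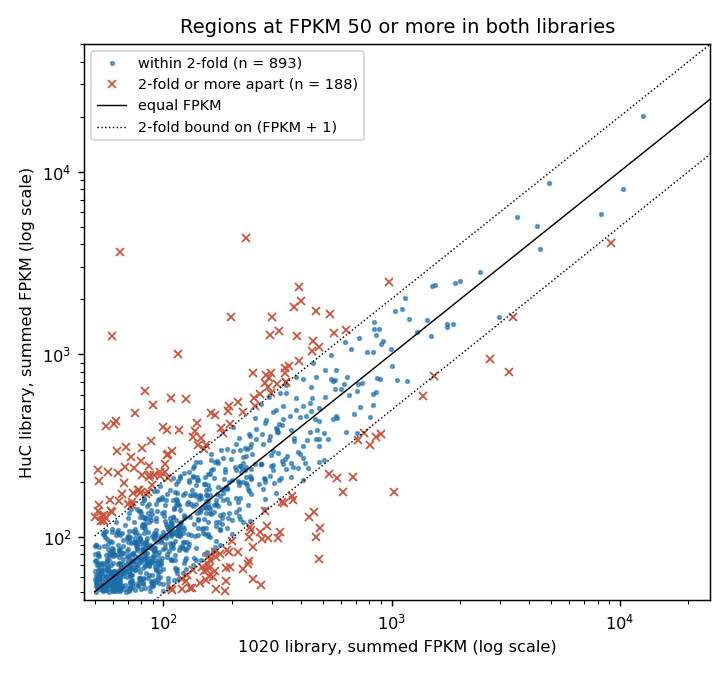
Summed FPKM of the 1081 abundant regions, 1020 on the horizontal and HuC on the vertical axis (both log scales), 1 symbol per region. The 893 regions at similar level (dots) lie between the dotted bounds by construction; 188 others (crosses) lie outside them, and at 1000 FPKM or more in both libraries only 2 crosses remain.

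Within the bounds the regions gathered around equal level. The median log2 ratio was -0.01, with quartiles of -0.36 and 0.27, and 438 regions were higher in the 1020 library against 455 in the HuC library (49.0% higher in 1020). Over all shared regions the median was -0.04 and 47.5% were higher in 1020. Of the 893 regions, 692 (77.5%) differed by less than 1.5-fold. The rule left out regions 2-fold or more apart, which raises this share. It was 64.0% of all 1081 abundant regions and 58.7% of all 23006 shared regions. The outermost bins were thinly filled, with 60 regions at log2 ratios from -1 to -0.75 and 41 from 0.75 to 1. The balance depended on scaling: with the HuC values set to the same sum over shared regions, a shift of 0.14 on the log2 scale, 54.0% were higher in the 1020 library.

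Levels ranged from 50.1 to 12655 FPKM in the 1020 library (median 102) and from 50.03 to 20065 FPKM in the HuC library (median 104). All shared regions had a median of 4.89 FPKM in each library. Across the 893 regions, log2 FPKM correlated between the libraries with r of 0.933 (Pearson) and rho of 0.849 (Spearman). These describe regions of the same 2 libraries, and the bound on the ratio itself holds them high. Ranked among all shared regions, the median shift in rank between libraries was 126 places. Of the 63 regions that were among the 100 most abundant of both libraries, 53 were at similar level. The other 10 lay outside the 2-fold bound. Over all 1081 abundant regions, 893 (82.6%) were at similar level. The ranks rest on values that the rule used, and nothing is read from this count.

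The 10 regions highest by their lower value held 25.4% (1020) and 27.7% (HuC) of the FPKM of the 893. The 100 highest held 56.0% and 58.8%. The first, on the unplaced Zv9_NA883 (35131 to 36037), reached 12655 FPKM in 1020 and 20065 FPKM in HuC. It was rank 1 in both libraries and 1.59 times higher in HuC on the (FPKM + 1) scale. Its row covered 907 bp in 1020 and 543 bp in HuC, and FPKM is relative to length. If each row is taken as contiguous, it corresponded to 9055 fragments in 1020 and 7026 in HuC for every 1000000 of the denominator, which is 1.29 times higher in 1020. The order of the libraries at this region thus turned with the length used, while both values kept it within 2-fold.

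The next region lay on chromosome 2 from 59486989 to 59491426, at 10328 FPKM in 1020 and 8058 FPKM in HuC, a log2 ratio of 0.36. It was listed as rows of 6424, 3359 and 544 FPKM in 1020 and of 6558 and 1500 FPKM in HuC, so its highest rows were closer to each other (log2 ratio -0.03) than its sums. Chromosome 8 from 54975716 to 54977376 held a single row in each library, at 8251 FPKM in 1020 and 5884 FPKM in HuC. It ranked 4 in both and had a log2 ratio of 0.49.

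Chromosome 19 from 45287363 to 45303009 had 4878 FPKM in 1020 and 8645 FPKM in HuC, a log2 ratio of -0.83. Its sum held unlike rows. The short row at its start was higher in 1020, at 4158 FPKM (3268 bp) against 3114 FPKM (3305 bp) in HuC. A row over the whole 15647 bp, at 3716 FPKM, was listed in HuC and in 1020 no row of that extent was. The third kind, a row of 14031 bp in 1020 and 14088 bp in HuC, stood at 720 and 1815 FPKM.

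Chromosome 22 from 18767947 to 18770365 had 4362 FPKM in 1020 and 5051 FPKM in HuC, from rows of 2419 and 2418 bp, and chromosome 23 from 3765193 to 3772205 had 4458 and 3778 FPKM. Their log2 ratios were -0.21 and 0.24. Chromosome 6 from 6890876 to 6891726 had 3556 FPKM in 1020 and 5650 FPKM in HuC, a log2 ratio of -0.67, from rows of 851 and 689 bp; in rough fragments this ratio was -0.26. On chromosome 12, from 22651625 to 22904585, 2454 FPKM in 1020 and 2812 FPKM in HuC came almost wholly from a row of 914 bp with the same ends in both libraries (22802565 to 22803478). That row carried 99.8% of the region's FPKM in each library and lay inside a row of 252930 bp at 4.47 FPKM in 1020 and of 252881 bp at 2.68 FPKM in HuC.

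The last of the 10 were chromosome 1 from 34340674 to 34346479 and chromosome 2 from 10478721 to 10494683. The former had 1986 FPKM in 1020 and 2530 FPKM in HuC, the latter 1902 and 2457 FPKM. Both were listed as 1 row per library and were lower in 1020, by log2 ratios of -0.35 and -0.37. By summed FPKM, 3 of the 10 favoured 1020 and 7 favoured HuC. The sign turned in rough fragments for Zv9_NA883, and by the highest row for 2 others, the first region on chromosome 2 and the one on chromosome 19.

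The share of abundant regions within 2-fold was 83.5% of 595 regions with a lower value of 50 to 100 FPKM (95% Wilson interval 80.3 to 86.3%). It was 84.0% of 256 at 100 to 200 (79.0 to 88.0%), 75.8% of 161 at 200 to 500 (68.6 to 81.7%) and 81.8% of 44 at 500 to 1000 (68.0 to 90.5%). The intervals treat regions as independent, which they are not. The rule used this contrast, and nothing is read from differences between the classes. Outside the bound, 45 regions were higher in 1020 and 53 in HuC at 50 to 100 FPKM, and 15 and 26 at 100 to 200. The counts were 8 and 31 at 200 to 500 FPKM, and 4 and 4 at 500 to 1000. At 1000 FPKM or more, 23 of 25 abundant regions were within 2-fold (92.0%, interval 75.03 to 97.8%, covering counting error only). By summed FPKM the 2 exceptions were both higher in 1020. They were chromosome 11 from 42154404 to 42157191, at 9187 FPKM in 1020 and 4060 FPKM in HuC, and chromosome 1 from 38578967 to 38581225, at 3410 and 1593 FPKM. Both set rows of unlike length side by side. On chromosome 1 the single rows covered 865 bp in 1020 and 2259 bp in HuC. On chromosome 11 the highest rows covered 1270 bp in 1020 and 2765 bp in HuC, with a log2 ratio of 0.81, inside the bound. FPKM is relative to length, and the part of length in these 2 ratios was not tested. The median log2 ratio of the similar regions was 0.003 in the lowest class and -0.21 in each of the 2 highest classes, where 36.1% of 36 and 34.8% of 23 regions were higher in 1020. With Zv9_NA883 placed by rough fragments, the last share was 39.1%.

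The regions nearest to equal level were not among the most abundant. Chromosome 7 from 75486449 to 75489311 had 77.7 FPKM in both libraries, each from a single row (2859 and 2862 bp). Chromosome 1 from 8229164 to 8237847 had 187 FPKM in 1020 and 188 FPKM in HuC, also from single rows. Chromosome 23 from 34128838 to 34273521 had 183 FPKM in both, but as sums of 9 rows in 1020 and 10 in HuC. Its highest row, over nearly the same span in both libraries (18776 and 18778 bp), was 60.5 FPKM in 1020 and 79.8 FPKM in HuC, a log2 ratio of -0.39. Equality of this sum did not extend to its rows. Rows set aside for their short span held a further 504 FPKM in this region in 1020 and none in HuC.

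At the edges of the rule, the regions just inside and just outside differed by little. On the 1020 side, chromosome 20 from 2760640 to 2771091 (410 FPKM in 1020 and 205 in HuC, log2 ratio 0.99) and chromosome 8 from 54804641 to 54808771 (116 and 58.4 FPKM, 0.97) were just inside. Chromosome 17 from 758919 to 766592 (1538 and 763 FPKM, 1.01) and chromosome 20 from 30057262 to 30061239 (159 and 78.1 FPKM, 1.01) were just outside. On the HuC side, chromosome 7 from 1684186 to 1756533 (267 and 534 FPKM, log2 ratio -0.997) and chromosome 24 from 22229643 to 22233475 (453 and 899 FPKM, -0.988) were just inside. Chromosome 19 from 1975731 to 1978771 (151 and 303 FPKM, -1.003) and chromosome 3 from 56902269 to 56985043 (84.3 and 170 FPKM, -1.007) were just outside.

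At the minimum level, chromosome 19 from 8380160 to 8418870 (58.0 FPKM in 1020 and 50.03 in HuC) and chromosome 16 from 15437078 to 15457557 (68.7 and 50.04 FPKM) were the lowest kept. Chromosome 5 from 25797844 to 25804343 (59.4 and 49.98 FPKM) and chromosome 21 from 574526 to 602059 (49.9 and 66.1 FPKM) were the highest left out. In the first of these 4 the highest row was 26.6 FPKM in 1020 and 39.2 FPKM in HuC, lower in 1020, although the sum was higher there.

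The rule did not use the span of a region directly above the minimum of 300 bp. It summed FPKM over rows, and longer regions were listed with more rows. The spans below are therefore not free of the rule. The 893 regions had a median span of 15115 bp (quartiles 7270 and 36885 bp), while the 22113 other shared regions had a median of 6927 bp. Merging of rows lengthens a region, and the median was 8342 bp in those of the 893 with 1 row in each library. The median of the other shared regions with 1 row in each library was not analysed. The 188 abundant regions outside 2-fold had a median of 9685 bp, with 11804 bp for those higher in 1020 and 7601 bp for those higher in HuC. Of the 893, 20 (2.24%) spanned less than 1000 bp, against 13.9% of the other shared regions and 2.66% of the 188. Few short regions were thus found among abundant regions of either kind. A span of 100000 bp or more was held by 90 of the 893 (10.1%), against 4.70% of the other shared regions and 4.26% of the 188. These are descriptions over regions, which are not replicates, and the differences were not tested.

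By class of span, the regions made up 0.645% of shared regions of 300 to 1000 bp, 0.938% of those of 1000 to 3000 bp, 5.37% of those of 3000 to 10000 bp, 5.87% of those of 10000 to 30000 bp, 4.90% of those of 30000 to 100000 bp and 7.96% of those of 100000 bp or more. Among abundant regions, the share within 2-fold was 80.0% of 25 at 300 to 1000 bp, 70.4% of 71 at 1000 to 3000 bp, 77.7% of 309 at 3000 to 10000 bp, 84.7% of 378 at 10000 to 30000 bp, 86.5% of 200 at 30000 to 100000 bp and 91.8% of 98 beyond that. Longer regions were listed with more rows, and a sum over many rows can be even where its rows are not. By rows in both libraries together, the share was 81.8% of 422 abundant regions with 2 rows and 80.2% of 363 with 3 or 4. It was 85.2% of 196 with 5 to 9, 87.8% of 49 with 10 to 19 and 92.2% of 51 with 20 or more. The part of rows in the shares by span was not tested. The rule used this contrast, and nothing is read from differences between the classes. The median log2 ratio was -0.04 at 300 to 1000 bp, -0.10 at 1000 to 3000 bp, -0.02 at 3000 to 10000 bp, 0.001 at 10000 to 30000 bp, 0.07 at 30000 to 100000 bp and -0.04 beyond. The share higher in 1020 was 40.0% at 1000 to 3000 bp, 54.9% at 30000 to 100000 bp and 40.0% in the longest class.

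**Figure D2:**
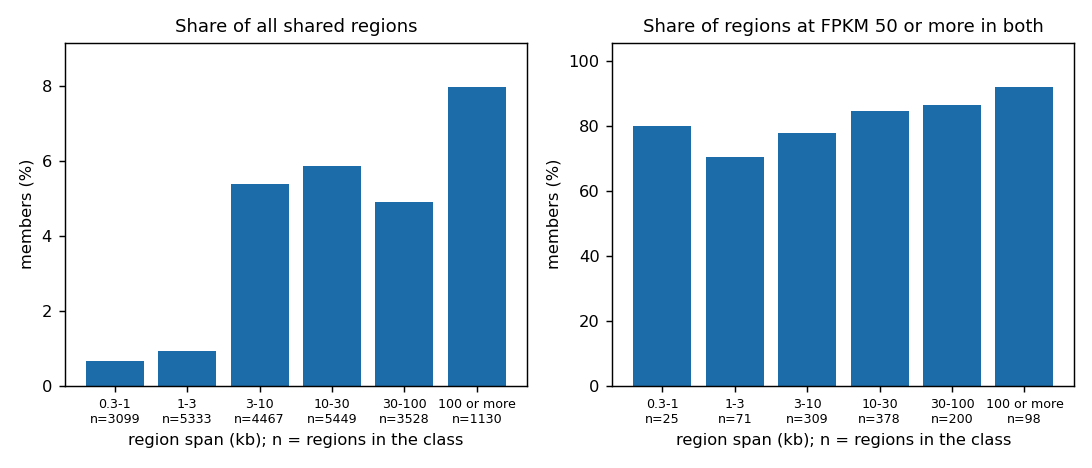
Share of abundant regions (50 FPKM or more in each library) within 2-fold ("members"), by region span in kb. Left, as a percent of all shared regions, from 0.645% in the shortest class to 7.96% in the longest; right, as a percent of the regions at 50 FPKM or more in both, with 80.0% in the shortest class, 70.4% at 1 to 3 kb and 91.8% at 100 kb or more.

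The shortest regions were chromosome 11 from 44142496 to 44142839, chromosome 3 from 17327245 to 17327593 and chromosome 1 from 52124599 to 52124948. The region on chromosome 11 had 182 FPKM in 1020 and 271 FPKM in HuC from a row of 344 bp in each, with intervals of 171 to 193 and 254 to 289 FPKM that did not overlap. The region on chromosome 3 had 59.3 FPKM in 1020 and 52.0 FPKM in HuC, which corresponded to 357 and 154 fragments. Its exact 95% Poisson intervals overlapped in FPKM (53.3 to 65.7 and 44.1 to 60.9). In rough fragments for every 1000000 of the denominator, which do not use the unequal lengths of its rows (349 and 328 bp), they did not (8.402 to 10.4 in 1020 and 5.97 to 8.24 in HuC). The region on chromosome 1 had 84.2 FPKM in 1020 and 77.8 FPKM in HuC.

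Among the 17 regions with a single row under 1000 bp in each library, the rough fragments, scaled to the denominators, kept 16 within 2-fold. The exception, on chromosome 25 from 1821 to 2584, had 223 FPKM in 1020 (764 bp) and 121 FPKM in HuC (681 bp), and its ratio in fragments was 2.16. Only Zv9_NA883 changed the library in which it was higher.

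The longest regions were chromosome 8 from 22934685 to 23411998 (477314 bp), chromosome 19 from 35201100 to 35670574 (469475 bp) and chromosome 20 from 1465178 to 1907505 (442328 bp). The first had 859 FPKM in 1020 and 621 FPKM in HuC, summed over 28 and 24 rows. Its highest rows were 458 FPKM in 1020 and 164 FPKM in HuC, a log2 ratio of 1.47, so that the sum placed within 2-fold a region whose leading row was not. The second had 115 FPKM in 1020 and 63.6 FPKM in HuC, and its highest rows, 13.6 and 8.85 FPKM, did not overlap. The third had 59.5 FPKM in 1020, from 4 rows, and 106 FPKM in HuC, from 12 rows. These values cover kept rows. Rows set aside for their short span or extreme value held a further 1395 FPKM in 1020 and 797 FPKM in HuC in the first region. They held 442233 and 0 FPKM in the second, and 7.90 and 0 FPKM in the third.

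The 893 regions thus held simple and compound ones. In 345 (38.6%) each library listed 1 row, against 49.3% of the other shared regions and 41.0% of the 188 abundant regions outside 2-fold. In 90 (10.1%) the libraries together listed 10 rows or more, against 4.197% of the other shared regions and 5.32% of the 188. A sum over more rows reaches 50 FPKM more easily, so these shares are not free of the rule. The 345 simple regions carried 46.4% of the FPKM of the 893 in 1020 and 48.5% in HuC, and the 90 compound ones 5.82% and 5.56%. In 227 regions 1020 had more rows, in 165 HuC had more and in 501 the numbers were equal. Among the 22113 other shared regions, 1020 had more rows in 5115, HuC in 3997, and the numbers were equal in 13001. The 1020 library also had more kept rows in all (62223 against 47318), and the part of this in these counts was not tested.

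A summed FPKM of 50 did not require an abundant row among those kept. The counts and highest rows in this paragraph cover kept rows only. A single row reached 50 FPKM in both libraries in 670 of the 893 regions (75.03%), in 1 library only in 111, and in neither in 112 (12.5%). Of the 90 regions with 10 rows or more, 48 had no row at 50 FPKM in either library. The most rows were held by chromosome 15 from 723082 to 1028334, with 58 rows in 1020 and 50 in HuC. It summed to 167 FPKM in 1020 and 136 FPKM in HuC, while its highest rows were 19.8 and 22.6 FPKM and did not overlap. Chromosome 23 from 44891743 to 45218081 had 33 and 40 rows, summed to 565 and 721 FPKM and held rows of up to 160 and 216 FPKM. Chromosome 4 from 58644842 to 58930110 had 40 and 28 rows and summed to 83.5 and 70.4 FPKM. No kept row there was above 6.33 FPKM in 1020 and 7.92 FPKM in HuC. Rows set aside for their short span or extreme value held a further 35.9 FPKM in 1020 and 108 FPKM in HuC in this region. In the region on chromosome 23 they held a further 100 and 7.37 FPKM. This region on chromosome 4 is therefore not shown to lack an abundant transcript.

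**Figure D3:**
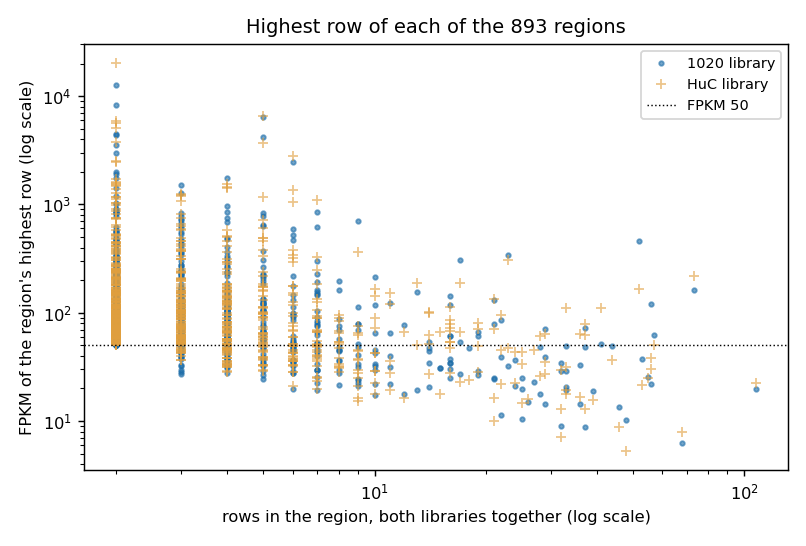
FPKM of the highest row of each of the 893 regions (vertical, log scale) against the number of rows listed for the region in both libraries together (horizontal, log scale), with dots for 1020 and crosses for HuC. Regions of 2 rows lie at or above 50 FPKM by construction, while 48 of the 90 regions with 10 rows or more have no kept row at 50 FPKM in either library.

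The rule did not use directly where the rows began and ended. FPKM is relative to row length, so the bound on its ratio can leave out regions with rows of unlike length. The shares below are therefore not free of the rule. Both ends of the highest rows lay within 100 bp of each other between libraries in 393 of the 893 regions (44.0%) and within 10 bp in 94 (10.5%). The highest rows of both libraries overlapped by 90% or more of the longer row in 641 regions (71.8%), against 55.9% of the 188 abundant regions outside 2-fold and 34.7% of the other shared regions. Restricted to regions with 1 row in each library, these shares were 93.0% of 345, 84.4% of 77 and 39.1% of 10893. In the 345 regions the median offset was 18 bp at the start and 24 bp at the end, against 17 and 15 bp in the 77 and 93 and 95 bp in the 10893 others. Both ends lay within 10 bp of each other in 53 (15.4%) of the 345 and within 100 bp in 221 (64.1%), against 19.5% and 63.6% of the 77. More fragments define the ends of a row better, and the part of level in these differences was not tested. The part of the bound on the ratio was not tested either.

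In the 24 simple regions whose rows overlapped by less than 90%, the median absolute log2 ratio was 0.56, against 0.27 in the other 321. The library with the shorter row had the higher FPKM in 14 of the 24, and in 162 of the 315 of the closer group whose spans were unequal. The rule bounded all these ratios, and the rows of the closer group overlapped by 90% or more. These counts therefore cannot show whether row length shifts the ratio, which was not tested.

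The match of highest rows fell as rows accumulated: it was 68.7% of 291 regions with 3 or 4 rows, 50.3% of 167 with 5 to 9, 46.5% of 43 with 10 to 19 and 34.0% of 47 with 20 or more. In 30 of the 893 regions (3.36%) the highest rows did not overlap at all, and 16 of these 30 had 20 rows or more. An example with few rows, chosen after its values were seen, was chromosome 10 from 40425317 to 40429201, with 358 FPKM in 1020 and 461 FPKM in HuC. Its highest row was 238 FPKM over 2431 bp in 1020 and 281 FPKM over 677 bp elsewhere in the region in HuC. Such regions were similar as sums and not shown to be similar as transcripts.

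Single rows were compared where a row of each library overlapped the other, and no other row equally well, by 90% or more. In regions of 3 rows or more there were 607 such pairs in 353 regions. Of these, 461 (75.9%) lay within 2-fold, 66 were higher in 1020 and 80 higher in HuC. For the 160 pairs at 50 FPKM or more in both libraries the share within 2-fold was 85.0%, with 8 higher in 1020 and 16 in HuC. These rows are parts of the sums whose ratio the rule bounded, which can raise both shares. Pairs of rows in other shared regions were not analysed, so nothing is read from the shares. In 6 regions a pair 2-fold or more higher in 1020 stood beside a pair 2-fold or more higher in HuC, and in 2 of them both pairs were at 5 FPKM or more.

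These 2 were named after their values were seen. Positions of rows are given for the stretch common to both libraries. On chromosome 4, the region from 10638033 to 10667698 had 74.995 FPKM in 1020 and 98.9 FPKM in HuC. Of 2 rows there that both began at 10638091, the one to 10645321 was 13.3 FPKM in 1020 and 28.3 FPKM in HuC, and the one to 10658732 was 50.5 and 18.9 FPKM. On chromosome 9, the region from 358283 to 513648 had 329 FPKM in 1020 and 209 FPKM in HuC. Its row from 489405 to 490058 was 46.8 FPKM in 1020 and 11.2 FPKM in HuC, and its row from 494569 to 513232 was 11.6 and 24.1 FPKM. In both regions the sum held rows with opposite differences.

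A span listed more than once within a library, as for isoforms with common ends, occurred in 214 of the 893 regions (24.0%). It occurred in 14.4% of the other shared regions and 13.8% of the 188 abundant regions outside 2-fold. A region with 1 row in each library cannot repeat a span. With 2 rows or more in each library, the shares were 46.6% of 369, 41.3% of 5799 other shared regions and 36.2% of 58 abundant regions outside 2-fold. The same start and end occurred in both libraries for a row of 8 of the 893 regions, out of 15 among all shared regions. It did so for 2 of the 188.

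The 893 regions lay on all 25 chromosomes and on 15 unplaced sequences. They made up 3.88% of all shared regions. By chromosome the share was highest on chromosome 19, with 53 of 905 (5.86%, 95% Wilson interval 4.51 to 7.58%), and chromosome 11, with 44 of 817 (5.39%, 4.04 to 7.15%). It was lowest on chromosome 4, with 15 of 1066 (1.41%, 0.855 to 2.31%), and on the unplaced sequences, with 17 of 796 (2.14%, 1.34 to 3.39%). Chromosome 9 had the next lowest share, with 25 of 843 (2.97%). The intervals cover counting only and treat regions as independent, which they are not. Chromosome 4 held few abundant regions of either kind, 23 in all, of which 15 (65.2%) were within 2-fold. Of its 15 regions, 13 began between 919951 and 24260456, and the other 2 began at 39247306 and 58644842. The positions of the other shared regions of chromosome 4 were not analysed, so nothing is read from this distribution. The median log2 ratio of the 893 regions by chromosome ranged from -0.17 on chromosome 12 to 0.11 on chromosome 22.

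**Figure D4:**
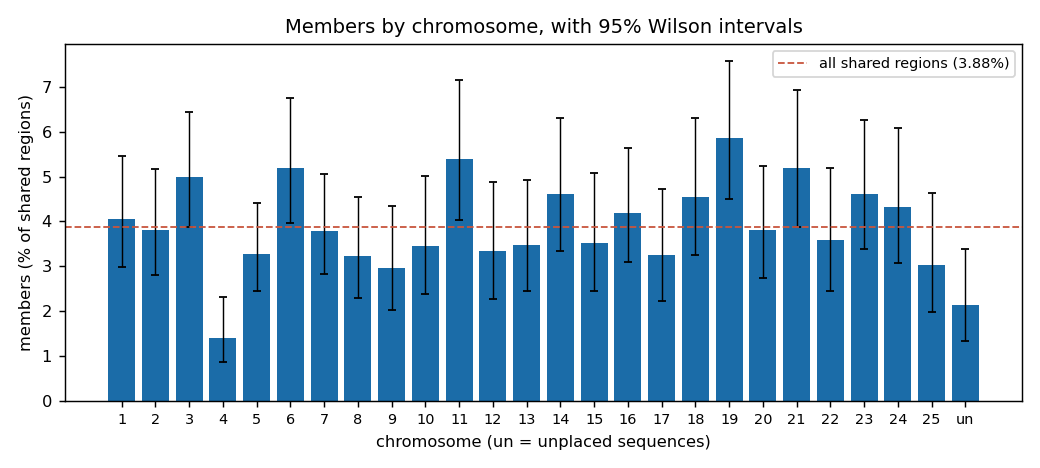
Abundant regions (50 FPKM or more in each library) within 2-fold ("members") as a percent of the shared regions of each chromosome, with 95% Wilson intervals for counting error and, dashed, the share over all shared regions (3.88%). Chromosome 19 is highest at 5.86% and chromosome 4 lowest at 1.41%.

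The abundant regions at similar level lay next to each other more often than other regions lay next to them. Neighbours were taken along each chromosome among the 21879 regions listed in both libraries at 1 FPKM or more in at least 1. Of the neighbours of the 876 regions on chromosomes, 6.99% were themselves in the set, against 3.87% of the neighbours of other regions. The difference was not tested, and the other regions were mostly far less abundant, with a median lower FPKM of 3.53. The same share for abundant regions outside 2-fold was not analysed, so the difference is not shown to be particular to similar level. In all, 116 of the 876 (13.2%) had such a neighbour, in 50 pairs and 5 longer runs. In 35 of 61 adjacent pairs both ratios had the same sign, and r was 0.13. The rule bounded both ratios of these pairs, which can lower r, so neither a link nor its absence is read from them. With the 1623 neighbours outside the set, where the rule bounded 1 ratio of each pair, the r was 0.02. Of those neighbours, 80.8% lay within 2-fold, against 80.6% of all 22655 regions listed in both libraries at that level. Nothing is read from this share.

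The longest run held 4 regions on chromosome 11, from 44122123 to 44210951, with no region of a single library between them. They had 278, 51.9, 182 and 71.1 FPKM in 1020 and 417, 81.5, 271 and 99.7 FPKM in HuC. All 4 were lower in 1020, with log2 ratios of -0.59, -0.64, -0.57 and -0.48. In the last of them the highest rows, of 64242 bp in 1020 and 64214 bp in HuC, were 49.1 FPKM in 1020 and 99.7 FPKM in HuC, a log2 ratio of -1.01. Shortly before the run, the region from 44120142 to 44120752 had 141 FPKM in 1020 and 319 FPKM in HuC. Its log2 ratio of -1.17 had the same sign and lay outside the bound. The other 4 runs held 3 regions each, on chromosome 19 from 31043495 to 31078237 and from 49758636 to 49817353, on chromosome 3 from 55405606 to 55458847 and on chromosome 5 from 38495755 to 38549685, and each held ratios of both signs. The run on chromosome 5 was the most abundant of these 4, with regions of 178 to 1288 FPKM in 1020 and 168 to 1328 FPKM in HuC, and log2 ratios from -0.04 to 0.33.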

How the data were processed

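RNA was sequenced from 1 library per sorted population. The authors deposited 1 FPKM value per row, with a chromosome span. TopHat 1.4.0, Cufflinks 2.1.1, Cuffdiff and the build Zv9 are named in the submitters' processing notes, without role or order. Annotation, filters and the meaning of a row (gene or isoform) are likewise not stated there. Starts count from 0 in the deposited rows, and 1 was added to each start printed.

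Rows with a span under 300 bp or an FPKM above 200000 were left out, rows overlapping by 1 bp or more were merged, and their FPKM added up for each library. The sum counts a transcript once per row that lists it. Regions without a row in a library were not taken as 0. Ratios are log2((FPKM 1020 + 1)/(FPKM HuC + 1)), and the added 1 draws them toward equal level. The draw is slight at 50 FPKM or more and stronger at low FPKM. All shared regions had a median of 4.89 FPKM, so their shares within 2-fold or 1.5-fold can be raised more than those of abundant regions. Denominators were fitted to the lowest recurring FPKM at each span from 450 to 600 bp, taken as 10 fragments. That floor of 10 is an assumption, and simulated rows built with it checked only the arithmetic. Rough fragments treat a row as contiguous. Fragments are not independent molecules, so intervals cover counting error only.

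The regions, lists and named examples were chosen with earlier results of these data known. Named regions were the 10 highest by the lower FPKM, the 3 nearest equal level, 2 on each side of each bound, the 3 longest, the 3 shortest, the 3 with most rows, the longest run, and the 2 chromosomes (or the unplaced group) with the highest and the lowest share. Gene lists and cell type markers needed gene names and were not analysed here. Python 3.11.15, pandas 2.3.3, numpy 2.4.6 and scipy 1.17.1 were used.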

Additional observations from a re-analysis of the deposited data

Results flagged for a closer look

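Rows set aside for their short span or extreme value drew attention as signal in data that the regions do not use. Of the 893 regions, 138 (15.5%, 95% Wilson interval 13.2 to 18.0%) were overlapped by at least 1 such row of the 1020 library and 61 (6.83%, 5.35 to 8.68%) by at least 1 of the HuC library. Among all shared regions the shares were 13.1% and 3.66%. The rows set aside summed to more FPKM than the rows kept in 61 of the 138 regions and in 16 of the 61. In the region on chromosome 19 from 35201100 to 35670574 they summed to 442233 FPKM in the 1020 library, beside 115 FPKM kept. FPKM at short spans can be inflated, which was not checked here, and the part of these rows in the level of a region was not tested.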

How the results depend on the processing

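Of the 893 regions, all 893 were kept with a pseudocount of 0.1 or 5 (13 entered with 5), 863 with the median ratio set to 0, 802 with the same sum in both libraries and 641 with the highest row per region. The number of regions was 1966 at a minimum of 25 FPKM, 396 at 100 FPKM and 345 with 1 row in each library, and stayed within 1.5 times under the other settings. The share of abundant regions within 2-fold (82.6%) was 76.0% with no span minimum, and the share higher in 1020 (49.0%) was 54.0% with the same sum. The median span (15115 bp) was 18026 bp at 25 FPKM, 12175 bp at 100 FPKM, 11940 bp with the highest row and 8342 bp with 1 row in each library. The summed FPKM held in 1020 and HuC (42.1% and 42.9%) was 50.6% and 50.7% at 25 FPKM, 34.6% and 35.7% at 100 FPKM, 19.5% and 20.8% with 1 row in each library, and 6.89% and 23.8% with no span minimum. It was 44.8% and 44.4% from 500 bp, 42.5% and 43.2% with a pseudocount of 5, 41.8% and 43.3% with the median ratio at 0, and 41.7% and 42.2% with an overlap of 50%. It was 40.5% in 1020 with the same sum and 41.9% in HuC with the highest row. The Pearson correlation (0.933) became 0.928 with a pseudocount of 5, 0.927 at 100 FPKM, 0.934 from 500 bp, 0.941 with no span minimum, 0.938 with the highest row, 0.948 with 1 row in each library and 0.932 with an overlap of 50%. Some of these settings admit fewer rows by construction; no other cause was tested. Of 37 named regions, 23 kept their sign and their side of the bound with the highest row, 9 changed sign and 6 crossed the bound. One of these, on chromosome 3 from 56902269 to 56985043, just outside the bound, went from a log2 ratio of -1.01 to 0.76; its highest rows were 74.9 FPKM over 2173 bp in 1020 and 43.8 FPKM over 59932 bp in HuC. The rough fragments were added after the data had been seen. With 1 library per group no replicate could be left out. No paired analysis was possible because there was only 1 library per group.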
